A study of Mus musculus with 18 samples.

Results

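The complement genes expressed in adipose tissue were described across 3 fat depots of Gm15551 knockout mice and their wild type litter mates. Members were the rows of the deposited gene table whose symbol was Cfd, C3, C4b, Cfb, C1s1, C1ra, C2, C6 or C7, which gave 9 of the 54347 rows. All 9 passed the filter on low counts, as did 18728 rows in all. The tissues were the brown fat between the shoulder blades (interscapular, iBAT) and the white fat of the groin (inguinal, iWAT) and of the epididymis (eWAT). They came from 6 mice at 12 weeks of age, 3 wild type (wt) and 3 knockout (ko), so that 18 libraries formed 6 groups of 3. All mice, controls included, belonged to the strain C57BL/6N-ΔGm15551. The ko mice carried a germline CRISPR/Cas9 deletion that includes the first exon of Gm15551, a long noncoding RNA gene, and the line was backcrossed for only a few generations. Each mouse gave all 3 tissues, so the tissues of a mouse are not independent. Replicates within a group were separate mice.

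Complement is a set of plasma proteins that act as a cascade of proteases and end in a pore, the membrane attack complex. The classical pathway starts when C1q, carrying the proteases C1r and C1s, binds a target and cleaves C4 and C2. The alternative pathway starts on C3b, to which factor B (Cfb) binds and is then cleaved by factor D (Cfd). Both cleave C3, after which C5, C6, C7, C8 and C9 assemble the pore. Most of these proteins are made chiefly in the liver. Factor D is an exception, since it is secreted by adipocytes and is also known as adipsin.

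The members lie on 4 chromosomes (GRCm38, GENCODE annotation). Cfd (ENSMUSG00000061780.6) is at chr10:79890853-79892655 on the plus strand, and C3 (ENSMUSG00000024164.15) at chr17:57203970-57228136 on the minus strand. C4b (chr17:34728380-34743882), Cfb (chr17:34856374-34862518) and C2 (chr17:34862604-34898265) lie in the class III region of the major histocompatibility complex, all on the minus strand, with 85 bases between Cfb and C2. C1s1 (chr6:124530345-124542359, minus strand) and C1ra (chr6:124512405-124523443, plus strand) are 6901 bases apart. C6 (chr15:4727175-4814967, plus strand) and C7 (chr15:4988762-5063740, minus strand) are neighbours on opposite strands with 173794 bases between them. All 9 are protein-coding genes.

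RefSeq promoter windows (GRCm38.p6, from 250 bases before to 50 bases after the start site) were at hand for 6 of the 9 members, namely Cfd, C3, C1s1, C1ra, C6 and C7. Those of 4 genes are shown on the strand of the gene: Cfd, the member of highest level per length, C3, whose levels differed between tissues in another way than those of the other members, and the neighbours C6 and C7, both highest in eWAT. Capitals mark matches on either strand to 3 motifs. The first was TTGCNNAA, a C/EBP-type element. Another was AGGTCA, the core of many elements bound by nuclear receptors. The last was the box that places the start site, TATAAA. None of the marked matches overlap. The windows are chr10:79890603-79890902 (Cfd), chr17:57228087-57228386 (C3), chr15:4726960-4727259 (C6) and chr15:5063724-5064023 (C7).
Cfd: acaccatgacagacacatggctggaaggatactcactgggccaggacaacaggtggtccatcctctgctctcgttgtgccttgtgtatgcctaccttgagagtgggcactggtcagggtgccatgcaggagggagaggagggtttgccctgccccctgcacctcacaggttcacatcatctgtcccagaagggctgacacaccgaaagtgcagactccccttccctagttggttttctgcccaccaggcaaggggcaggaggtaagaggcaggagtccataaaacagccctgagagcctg
C3: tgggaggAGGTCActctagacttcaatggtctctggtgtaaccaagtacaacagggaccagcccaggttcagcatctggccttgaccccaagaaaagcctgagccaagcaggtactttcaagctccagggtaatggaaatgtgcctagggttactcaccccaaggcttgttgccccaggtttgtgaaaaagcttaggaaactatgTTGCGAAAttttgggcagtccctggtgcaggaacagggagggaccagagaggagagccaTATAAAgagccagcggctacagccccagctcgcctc
C6: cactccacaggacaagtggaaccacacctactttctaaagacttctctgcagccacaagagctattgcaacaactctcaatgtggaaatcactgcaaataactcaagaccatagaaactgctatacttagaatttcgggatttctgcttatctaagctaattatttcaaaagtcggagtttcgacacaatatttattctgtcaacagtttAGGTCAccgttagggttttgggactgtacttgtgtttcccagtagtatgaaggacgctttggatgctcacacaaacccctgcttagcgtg
C7: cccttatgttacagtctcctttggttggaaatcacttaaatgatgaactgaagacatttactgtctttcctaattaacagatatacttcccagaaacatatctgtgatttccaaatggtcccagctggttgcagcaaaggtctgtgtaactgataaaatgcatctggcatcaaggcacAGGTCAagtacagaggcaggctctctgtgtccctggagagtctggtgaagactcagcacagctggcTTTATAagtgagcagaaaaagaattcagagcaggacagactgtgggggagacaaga
Counted from the start site, with negative positions before it, the C3 window held AGGTCA at -243 to -238, TTGCNNAA at -45 to -38 and TATAAA at 15 to 20. The C6 window held AGGTCA at -40 to -35. The C7 window held AGGTCA at -72 to -67 and, on the opposite strand, TATAAA at -6 to -1. Of the windows not shown, 1 of those of C1s1 and that of C1ra each held TTGCNNAA, and the Cfd window held none of the 3 motifs. Of 32851 RefSeq windows of the same length, 10.8% held TTGCNNAA, 16.3% AGGTCA and 13.6% TATAAA. These matches are descriptions of letters in a window and were not related to the levels.

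Libraries held between 14997901 and 34389586 estimated counts. In ko libraries Gm15551 itself had 0 to 4 counts, against 40 to 68 in wt iBAT, 59 to 316 in wt iWAT and 181 to 237 in wt eWAT. Mitochondrial genes took 22.9% to 27.0% of the counts in iBAT and 3.77% to 9.64% in the white depots. The tissue labels were checked against marker lists. The summed level of 8 brown adipocyte markers was 7581 to 13252 CPM in iBAT (CPM are counts scaled to library size by TMM), but only 28.7 to 352 CPM in iWAT and 7.85 to 23.1 CPM in eWAT. In all, 4 libraries stood apart. The lymph node list summed to 1276 CPM in iWAT wt replicate 3 and 570 CPM in iWAT ko replicate 2, with 28.4 CPM as the next highest. The skeletal muscle list reached 4469 CPM in iWAT ko replicate 1, and the epididymis list 4845 CPM in eWAT ko replicate 3, where the next highest library had 16.7 CPM. The adipocyte list, 10 genes with Adipoq and Plin1 among them, was lowest in iWAT wt replicate 3 (12109 CPM), eWAT ko replicate 3 (15302 CPM) and iWAT ko replicate 2 (17852 CPM), against 24170 to 35355 CPM in all other libraries. In such bulk samples, fewer cells of a type and less RNA per cell cannot be told apart.

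Brown fat held lower levels of all members but C3 than either white depot. In iBAT against iWAT, 8 of the 9 members were lower and C3 was not called, at an adjusted p below 0.05 in edgeR's quasi-likelihood test across all genes tested, where 30.3% of all genes tested were called lower and 54.3% in either direction. In iBAT against eWAT, the same 8 members were lower and C3 was higher, against 30.2% of all genes called lower and 24.4% called higher (54.6% in all). The median log2 fold change of the members was -3.47 against iWAT and -3.13 against eWAT, beside -0.14 and -0.17 over all genes tested. The ranges of 6 libraries did not overlap for 7 members between iBAT and iWAT (34.6% of all genes) and for all 9 between iBAT and eWAT (37.3% of all genes). Both comparisons share the iBAT libraries. Without the 4 libraries that stood apart, 8 and 9 members were called as before.

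**Figure D1:**
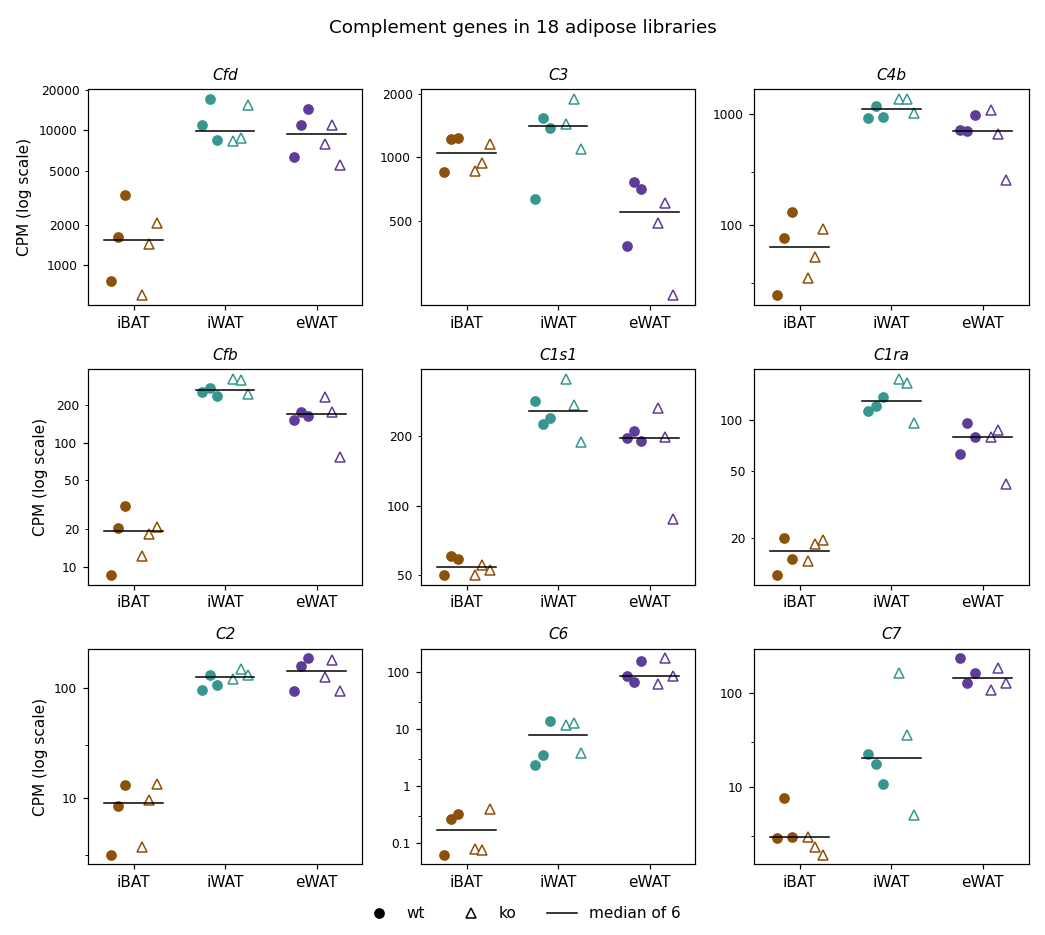
Level of each complement gene in each of the 18 libraries, in CPM on a log axis, by tissue, with filled circles for wt, open triangles for ko and a line at the median of 6 libraries. In iBAT, 7 genes lie below every white library and C7 below every eWAT library, C3 lies within the iWAT range, and wt and ko points overlap in every tissue.

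Among the genes of the alternative pathway, Cfd, the protease that activates factor B, had the highest level per length in every tissue. In iBAT its level was 761, 1622 and 3349 CPM in wt replicates 1 to 3 and 599, 1438 and 2045 CPM in ko replicates 1 to 3. In the iWAT libraries it was 10890, 17037 and 8476 CPM in wt and 8359, 8777 and 15406 CPM in ko. In eWAT it was 6412, 10991 and 14485 CPM in wt and 7907, 11019 and 5512 CPM in ko. Every white library was thus above every iBAT library, while the white depots overlapped, with 3 eWAT libraries below every iWAT library and 2 iWAT libraries above every eWAT library. The fitted difference was 7.12-fold lower in iBAT than in iWAT (log2 fold change -2.83 ± 0.40 SE, edgeR adjusted p = 1.8e-05) and 5.76-fold lower than in eWAT (-2.53 ± 0.39, adjusted p = 4.2e-05). Between iWAT and eWAT it was 0.30 on the log2 scale (95% interval -0.48 to 1.09, adjusted p = 0.66). Cfd made up 0.893% to 1.82% of all counts in iWAT, 0.745% to 1.75% in eWAT and 0.037% to 0.25% in iBAT.

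Within iBAT, Cfd spread 5.59-fold between the lowest and the highest library, more than in iWAT (2.04-fold) or eWAT (2.63-fold). The lowest Cfd levels, in replicate 1 of both genotypes, stood beside the highest summed brown adipocyte markers (12092 CPM in wt, 13252 CPM in ko), and the highest, in replicate 3, beside the lowest (8079 CPM in wt, 7581 CPM in ko). C3, C4b, Cfb, C1s1, C1ra and C2 were also lowest in replicate 1 of both genotypes, and C6 and C7 were not. The span was narrow for C1s1, from 50.2 to 60.4 CPM over the same 6 libraries. The part of the marker differences in these levels was not tested.

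C3, the protein on which all pathways converge, did not follow the other members. Its level in iBAT was 853, 1224 and 1229 CPM in wt and 867, 936 and 1157 CPM in ko. In iWAT it was 639, 1526 and 1377 CPM in wt and 1431, 1881 and 1096 CPM in ko. In eWAT it was 381, 769 and 713 CPM in wt and 492, 610 and 223 CPM in ko. The iBAT libraries fell within the range of iWAT, and each lay above every eWAT library. The difference between iBAT and iWAT was not called (log2 fold change -0.35, 95% interval -0.94 to 0.23, edgeR adjusted p = 0.30). Against eWAT, C3 was 1.97-fold higher in iBAT (0.98 ± 0.28 SE, adjusted p = 0.0070) and 2.52-fold higher in iWAT (1.33 ± 0.28, adjusted p = 0.0072). In the 9 wt libraries alone neither difference from eWAT was called (0.83, adjusted p = 0.13, and 0.93, adjusted p = 0.33), and without the 4 libraries that stood apart the difference between iWAT and eWAT was 0.87 (adjusted p = 0.0502). Over 12 alternatives, the adjusted p ran from 8.2e-04 to 0.13 for iBAT and from 4.7e-05 to 0.33 for iWAT against eWAT in edgeR, DESeq2 or limma.

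Cfb, factor B, which supplies the catalytic subunit of the alternative C3 convertase, had 8.58, 19.5 and 30.9 CPM as the lowest, median and highest level in iBAT. In iWAT the values were 237, 268 and 328 CPM, and in eWAT they were 77.5, 170 and 232 CPM. The 3 ranges did not overlap. Cfb was 14.9-fold lower in iBAT than in iWAT (log2 fold change -3.90 ± 0.30 SE, edgeR adjusted p = 1.9e-08) and 8.77-fold lower than in eWAT (-3.13 ± 0.29, adjusted p = 1.0e-07). Between the white depots the difference of 0.77 on the log2 scale did not pass the threshold (adjusted p = 0.073, with adjusted p = 0.031 in DESeq2, 0.043 and 0.052 in 2 limma fits and 0.031 to 0.45 over 12 alternatives).

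The proteases of C1 were lower in iBAT than in either white depot. C1s1, which cleaves C4 and C2, had 50.2, 54.2 and 60.4 CPM as the lowest, median and highest level in iBAT, against 188, 257 and 354 CPM among inguinal and 88.0, 197 and 266 CPM among epididymal libraries. C1ra, which activates C1s, had 12.0, 16.7 and 20.03 CPM in iBAT, against 95.8, 129 and 175 CPM among inguinal and 41.8, 79.2 and 95.7 CPM among epididymal libraries. For both genes all iBAT libraries lay below all white libraries. C1s1 was 4.78-fold lower in iBAT than in iWAT and 3.50-fold lower than in eWAT (edgeR adjusted p = 1.5e-07 and 1.2e-06). C1ra was 8.10-fold lower than in iWAT and 4.49-fold lower than in eWAT (adjusted p = 8.2e-09 and 1.4e-07). C1ra was also 1.80-fold higher in iWAT than in eWAT (log2 fold change 0.85 ± 0.19 SE, adjusted p = 0.012). This call was lost in wt libraries alone (0.64, adjusted p = 0.22), without the 4 libraries that stood apart (0.44, adjusted p = 0.11) and without ko replicate 2 in all tissues (0.84, adjusted p = 0.054). Over 12 alternatives its adjusted p ran from 6.4e-04 to 0.22.

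C4b and C2, whose products form the classical C3 convertase, differed more. C4b had 23.3, 63.5 and 131 CPM as the lowest, median and highest level in iBAT. Its inguinal levels were 929, 1105 and 1362 CPM and its epididymal levels 255, 707 and 1091 CPM. It was 16.9-fold lower in iBAT than in iWAT (log2 fold change -4.08 ± 0.42 SE, edgeR adjusted p = 5.2e-07) and 10.8-fold lower than in eWAT (-3.44 ± 0.41, adjusted p = 2.0e-06). C2 had 3.02, 8.92 and 13.2 CPM in iBAT. Its inguinal levels were 96.3, 125 and 148 CPM and its epididymal levels 94.1, 142 and 185 CPM. Against iWAT it was 14.4-fold lower in iBAT (-3.85 ± 0.34, adjusted p = 1.0e-07), and against eWAT 16.5-fold lower (-4.04 ± 0.34, adjusted p = 4.3e-08). Neither gene was called between the white depots (0.64 and -0.20 on the log2 scale, adjusted p = 0.30 and 0.73). The library with epididymis genes, eWAT ko replicate 3, had the lowest level among the 12 white libraries for Cfd, C3, C4b, Cfb, C1s1 and C1ra, and the part of those genes in these values was not tested.

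Sequence shared with other genes limits the values of 5 members. Of the stretches of 31 bases in their transcripts, 48.3% in C4b were also in C4a, and 59.6% in C1ra, 47.6% in C1s1, 75.5% in Cfb and 44.4% in C2 were also in other genes, chiefly C1rb, C1s2 and the antisense Gm16567, and the readthrough gene Gm20547. Cfd, C3 and C7 shared none, and C6 0.282%. Counts assigned to the partners were small, with at most 5.84% of those of C4b for C4a in iBAT and 0.60% in the white depots. The exception was Zbtb12, a gene on the opposite strand that overlaps C2 by 161 exonic bases, with 53.9% to 198% of the counts of C2 in iBAT. With all partner counts added, the log2 fold change of C2 was -3.10 against iWAT and -3.28 against eWAT, and that of C4b -4.04 and -3.41, and the number of members called in each tissue comparison stayed at 8, 9 and 3.

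The terminal genes C6 and C7, whose products build the membrane attack complex, had their highest median levels in epididymal fat. C6 had 85.4, 68.0 and 159 CPM in wt eWAT and 62.6, 175 and 87.5 CPM in ko eWAT. In iWAT it had 2.36, 3.52 and 13.7 CPM in wt and 11.6, 12.5 and 3.80 CPM in ko. In iBAT each library held only 1 to 6 counts. No range overlapped another. Over the 6 iBAT libraries the 18 counts amount to 0.202 CPM (exact Poisson 95% interval 0.120 to 0.320 CPM), and the ratio of pooled levels was 566 for eWAT over iBAT (95% interval 358 to 956) and 38.2 for iWAT over iBAT (24.0 to 64.6). These intervals cover counting error only. In the fit across all libraries C6 was 13.6-fold lower in iWAT than in eWAT (log2 fold change -3.77 ± 0.45 SE, edgeR adjusted p = 5.1e-05). The 3 iWAT libraries highest in C6, wt replicate 3 and ko replicates 1 and 2, were those with lymph node or muscle genes. Without the 4 libraries that stood apart the difference was -5.08 (adjusted p = 9.0e-06), and that of iBAT from iWAT was -3.99 (adjusted p = 6.2e-05) instead of -5.24, so both folds rest on these libraries while the calls do not.

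C7 had 232, 127 and 162 CPM in wt eWAT and 107, 184 and 128 CPM in ko eWAT. In iWAT it had 22.5, 17.8 and 10.9 CPM in wt and 162, 35.4 and 5.08 CPM in ko. In iBAT it had 2.90, 7.75 and 2.96 CPM in wt and 2.97, 2.32 and 1.93 CPM in ko. The iBAT libraries lay below all eWAT libraries, and 1 iWAT library, ko replicate 1, reached the eWAT range while the other 5 stayed below 36 CPM. C7 was 44.4-fold lower in iBAT than in eWAT (log2 fold change -5.47 ± 0.75 SE, edgeR adjusted p = 1.1e-05) and 11.1-fold lower than in iWAT (-3.47 ± 0.72, adjusted p = 7.0e-04). The difference between iWAT and eWAT was -2.003 on the log2 scale and missed the threshold (adjusted p = 0.061). With the mouse as a block it was -2.70 (adjusted p = 0.019), and without iWAT ko replicate 1, the library with muscle genes, it was -3.10 (adjusted p = 3.9e-04). Without that library the difference between iBAT and iWAT was -2.41 (adjusted p = 2.6e-04). In DESeq2 the difference between iWAT and eWAT was -1.96 (adjusted p = 0.011), and over 12 alternatives its adjusted p ran from 1.0e-04 to 0.20.

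The summed level of mesothelial markers was also highest in eWAT. The 8 markers summed to 76.2 to 144 CPM in eWAT, 3.11 to 55.4 CPM in iWAT and 4.01 to 6.87 CPM in iBAT, where Wt1, Upk1b and Bnc1 were at 0 in all libraries. Unlike C6, the sums of iWAT and iBAT overlapped, and in iWAT ko replicate 3, the highest of that depot, Krt19, a keratin of many epithelia, made up 50.4 CPM of the sum. In eWAT ko replicate 3, the library with epididymis genes, Krt19 made up 52.8 of 85.7 CPM. The median of Krt19 was 12.1 CPM in iWAT and 11.7 CPM in eWAT. Lrrn4 overlapped between iBAT (3.75 to 6.55 CPM) and eWAT (3.02 to 13.4 CPM). Upk3b, a surface protein of mesothelium, had 13.1 to 61.7 CPM in eWAT and at most 1 count in any other library. The iWAT library highest in C7 had a mesothelial sum of 4.47 CPM. Summed markers of progenitors and fibroblasts were lower in iBAT (534 to 816 CPM) than in iWAT (3421 to 10350 CPM) or eWAT (1304 to 2919 CPM). The highest of these sums was that of iWAT ko replicate 2, a library with lymph node genes. Not every gene of the list followed the sum. The median of Pi16 was 21.7 CPM in iBAT and 14.0 CPM in eWAT. Fbln1 overlapped between iBAT (1.10 to 5.56 CPM) and iWAT (1.87 to 59.5 CPM). Summed macrophage markers were also lower in iBAT (79.5 to 170 CPM against 305 to 1499 CPM and 188 to 619 CPM). Hepatocyte markers summed to at most 49.8 CPM in any library. The part of these cell types in the differences between depots was not tested.

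Between the white depots, 3 of the 9 members were called, C3 and C1ra higher and C6 lower in iWAT, against 10.2% of all genes tested (5.7% higher, 4.5% lower). The ranges of 6 libraries did not overlap for Cfb, C1ra and C6, against 4.62% of all genes, and for C1ra the gap was narrow, 95.8 CPM as the lowest iWAT against 95.7 CPM as the highest eWAT value. The median log2 fold change of the members was 0.45, beside 0.01 over all genes tested. C1s1 (0.45, 95% interval 0.03 to 0.87, edgeR adjusted p = 0.16) was among the 6 not called.

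**Figure D2:**
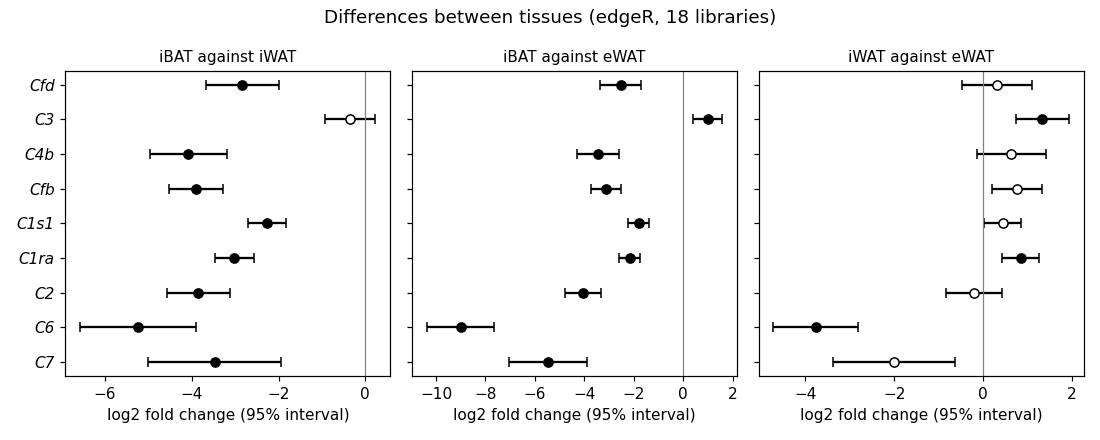
Log2 fold changes of the 9 genes in the 3 tissue comparisons, with 95% intervals from edgeR over 18 libraries and filled points for an adjusted p below 0.05. The iBAT comparisons run from -5.24 (C6) to -0.35 (C3) against iWAT and from -9.00 (C6) to 0.98 (C3) against eWAT, and against eWAT 3 iWAT points are filled.

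Levels of different genes were compared per kilobase of exon. In iWAT the means over 6 libraries were 12463 CPM per kb for Cfd, 258 for C3, 199 for C4b, 98.3 for Cfb, 83.5 for C1s1, 45.0 for C1ra, 31.5 for C2, 15.8 for C7 and 2.23 for C6. Cfd had the highest level per length of all nuclear genes in each of the 12 white libraries. The ranges of neighbours in this order overlapped except between Cfd and C3, C4b and Cfb, and C1s1 and C1ra. In eWAT the order was Cfd (10182 CPM per kb), C4b (129), C3 (103), C1s1 (61.2), C7 (58.6), Cfb (57.8), C2 (35.9), C6 (29.9) and C1ra (24.9), and apart from Cfd all neighbours overlapped. In iBAT it was Cfd (1774 CPM per kb), C3 (203), C1s1 (17.5), C4b (11.9), Cfb (6.58), C1ra (5.55), C2 (2.18), C7 (1.30) and C6 (0.055). There Cfd ranked between 5 and 76 among nuclear genes, and neighbours overlapped from C1s1 to C1ra and from C2 to C7 but not across the other steps.

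**Figure D3:**
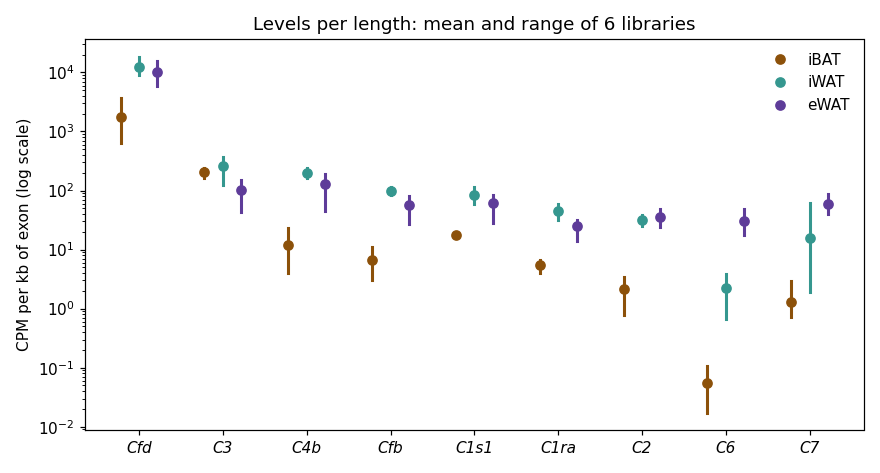
Mean level per length (points, CPM per kb of exon, log axis) and range over 6 libraries (bars) of each gene in iBAT, iWAT and eWAT. Cfd is highest in every tissue, C3 comes next in iBAT and iWAT, and C6 is lowest in iBAT at a mean of 0.055 CPM per kb.

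Ratios within a library do not depend on scaling between libraries. Cfd was first set against Adipoq, the adipocyte hormone adiponectin. The ratio of Cfd to Adipoq counts lay between 0.844 and 2.89 in iBAT, between 3.97 and 9.22 in iWAT and between 3.79 and 5.89 in eWAT. Within mice, the log2 ratio in iBAT minus that in iWAT was -2.11 ± 0.23 (SD, n = 6 mice, exact two-sided permutation p = 0.03125, adjusted p = 0.0375 over 6 tests). This p is the smallest that 6 mice allow. The difference was -1.65 ± 0.48 for iBAT minus eWAT and 0.46 ± 0.31 for iWAT minus eWAT, and both were in 1 direction in 6 of 6 mice with the same exact p. The level of Cfd itself was not called between the white depots. In the 3 libraries low in adipocyte genes the ratio was 9.22 (iWAT wt replicate 3), 6.998 (iWAT ko replicate 2) and 5.35 (eWAT ko replicate 3), and the first of these was the highest of all 18 libraries. Among libraries not low in adipocyte genes, iWAT ko replicate 3 had 8.55 and eWAT wt replicate 3 had 5.89. In every group of tissue and genotype the ratio rose from replicate 1 to 2 to 3. Each ko library also lay below the wt library of the same tissue and number. Neither pattern was tested.

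The ratio of Cfd to C3 counts had a median of 1.43 in iBAT, 8.66 in iWAT and 17.4 in eWAT. Within mice, the log2 ratio differed by -2.70 ± 1.12 for iBAT minus iWAT and by -3.74 ± 0.59 for iBAT minus eWAT (SD, n = 6 mice, lower in 6 of 6, exact permutation p = 0.03125, adjusted p = 0.0375 for each). In eWAT the ratio lay between 14.3 and 24.7 in all 6 libraries, and in iWAT it spread from 4.67 to 17.05. For iWAT minus eWAT the log2 difference was -1.05 ± 0.79, lower in 5 of 6 mice, and did not pass (exact permutation p = 0.0625, adjusted p = 0.0625, n = 6).

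**Figure D4:**
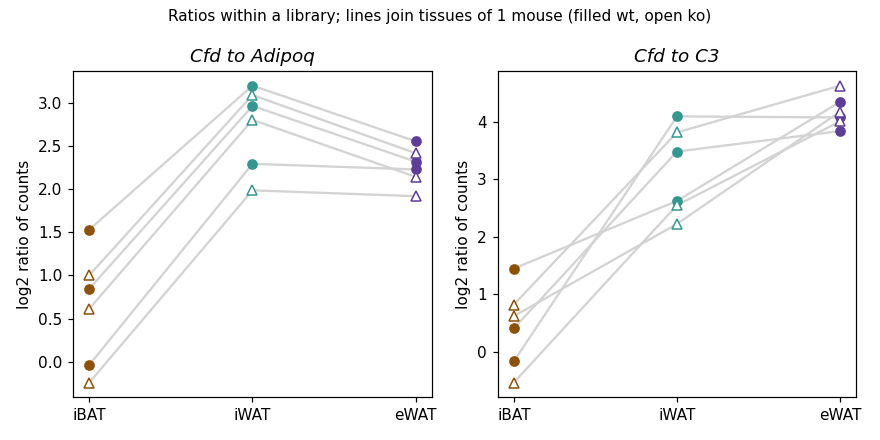
Log2 ratio of Cfd to Adipoq counts (left) and of Cfd to C3 counts (right) in each library by tissue, with grey lines joining the tissues of a mouse, filled circles for wt and open triangles for ko. All 6 lines rise from iBAT to iWAT in both panels, and from iWAT to eWAT all 6 fall on the left while 5 of 6 rise on the right.

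Across the 18 libraries, which differ in tissue and share mice, the members other than C3 were correlated over all libraries but not all within tissues. In their 28 pairs the Pearson correlation of log2 CPM ran from 0.65 to 0.99, and after the tissue means were removed from -0.20 (Cfd and C7) to 0.96. It was 0.99 for C4b and Cfb (0.96 within tissues). It was 0.97 for Cfd and C2 (0.86 within tissues), 0.97 for C1s1 and C1ra (0.77) and 0.93 for C6 and C7 (0.35). C3 correlated with the other members between -0.49 (C7) and 0.10 (C1ra) over all libraries and between 0.17 (C7) and 0.79 (C1ra) within tissues. Among all genes tested, Dram1 (0.99), Adcy5 (0.98) and B3galt2 (0.98) were most like Cfd, and Cfb, Rasa3 and Casp12 (0.99, 0.98 and 0.98) most like C4b. Zfhx4 and Dpp7 (0.86 and 0.85) were among those most like C3. Col6a5, Penk and Nnt (0.98, 0.97 and 0.97) were most like C6, and Vit, App and Sult1e1 (0.97, 0.97 and 0.97) most like C7. Within tissues these values fell to 0.41 for Nnt and 0.55 for Penk with C6, but stayed at 0.96 for B3galt2 with Cfd.

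The rest of the complement system was read from lists of 50 other genes, of which 36 passed the filter. In iBAT against iWAT, 25 were lower, 4 higher and 7 not called, where 30.3% of all genes tested were lower and 24% higher. In iBAT against eWAT, 24 were lower, 4 higher and 8 not called, where 30.2% of all genes were lower and 24.4% higher. Their median log2 fold changes were -2.53 and -1.92, and stayed there with C1s2 and Vsig4, at 0 counts in all iBAT libraries, set to the bound that 3 counts over the 6 libraries give. Between iWAT and eWAT, 6 were higher, 3 lower and 27 not called, with a median of 0.42, where 5.7% of all genes were higher and 4.5% lower. These shares are also the background for each list. In the 9 wt libraries alone edgeR called 0 of 33 tested between the white depots, with 7 at an unadjusted p below 0.05.

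Of 11 genes of classical and lectin initiation, 9 were lower in iBAT than in iWAT and 8 lower than in eWAT. The C1q chains C1qa, C1qb and C1qc, made mainly by macrophages, were lower than in iWAT (log2 fold change -2.81, -2.76 and -2.71, edgeR adjusted p = 2.4e-05, 2.9e-05 and 3.0e-05). Masp1, a protease of the lectin pathway, was lower in iBAT than in either white depot (log2 fold change -2.78 and -4.07) and lower in iWAT than in eWAT (-1.30, adjusted p = 0.029, but 0.0508 to 0.070 without any 1 of 6 white libraries), with a mean of 6.69 CPM in eWAT. The collectins Colec12 and Colec11 were lower in iBAT than in eWAT (-1.91 and -2.65). C1rl, a C1r-like protease, was higher there (1.54 ± 0.23 SE, adjusted p = 2.6e-05), at a mean of 37.2 CPM in iBAT and 12.8 CPM in eWAT.

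Of the alternative and terminal pathways, 3 further genes were tested. Cfp, properdin, which stabilises the alternative convertase, was lower in iBAT than in iWAT and eWAT (log2 fold change -3.15 and -2.09). C8g, the gamma chain of C8, was higher in iBAT than in both (1.78 and 1.57, edgeR adjusted p = 1.3e-06 and 3.7e-06). Hc, which encodes C5, was low throughout, with a mean of 1.14 CPM in iWAT and 0.08 CPM in both other tissues. C8a, C8b and C9, the other pore components, did not pass the filter in these libraries.

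Of 13 regulators, 6 were lower and 2 higher in iBAT than in iWAT, and 7 lower and 2 higher than in eWAT. The 8 of 13 called against iWAT are near the 54.3% of all genes called there, and the 9 of 13 against eWAT stand beside 54.6%. The 2 that were higher in iBAT in both comparisons were Cpn2, the regulatory subunit of carboxypeptidase N, and Cd59b, a membrane inhibitor of pore assembly. Cpn2 had a mean of 49.7 CPM in iBAT, against 0.76 CPM in inguinal and 0.11 CPM in epididymal libraries (log2 fold change 6.05 ± 0.48 SE and 8.66 ± 0.57, edgeR adjusted p = 3.0e-08 and 2.8e-09). Cd59b had 15.2, 4.12 and 1.81 CPM in the same order. The inhibitor Serping1 (C1 inhibitor; -2.53 against iWAT) and the pore inhibitor Vtn (-1.14 against eWAT) were lower in iBAT. Cd55, which speeds the decay of convertases, was lower in iBAT than in iWAT (-3.18) and higher in iWAT than in eWAT (2.03, adjusted p = 9.2e-04, and 2.19 with adjusted p = 0.054 in wt libraries alone). Susd4 was lower in iWAT than in eWAT (-4.29, adjusted p = 0.012), with 0.63 to 50.1 CPM among the eWAT libraries. The highest value was that of eWAT ko replicate 3, the library with epididymis genes, without which the difference was -3.08 (adjusted p = 0.032), and without eWAT wt replicate 1, the next highest at 20.2 CPM, it was -3.39 and not called (adjusted p = 0.088).

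Of 9 receptors, 8 were lower in iBAT in either comparison. The anaphylatoxin receptors C3ar1 and C5ar1 were lower than in iWAT (log2 fold change -2.53 and -2.54), as were the integrin chains Itgam and Itgax, which form complement receptors of myeloid cells (-4.14 and -3.91). Cr2, a complement receptor of B cells, was the receptor called between iWAT and eWAT (5.63, edgeR adjusted p = 0.016), with a highest value of 54.4 CPM in iWAT, where 2 libraries were rich in lymph node genes, and at most 0.30 CPM in eWAT. Without iWAT wt replicate 3 it was 3.72 (adjusted p = 0.073) and without iWAT ko replicate 2 it was 4.76 (adjusted p = 0.099). Without those 2 libraries, 5 other complement genes were called between the white depots, instead of the 9 of 36 called in the fit of all libraries.

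**Figure D5:**
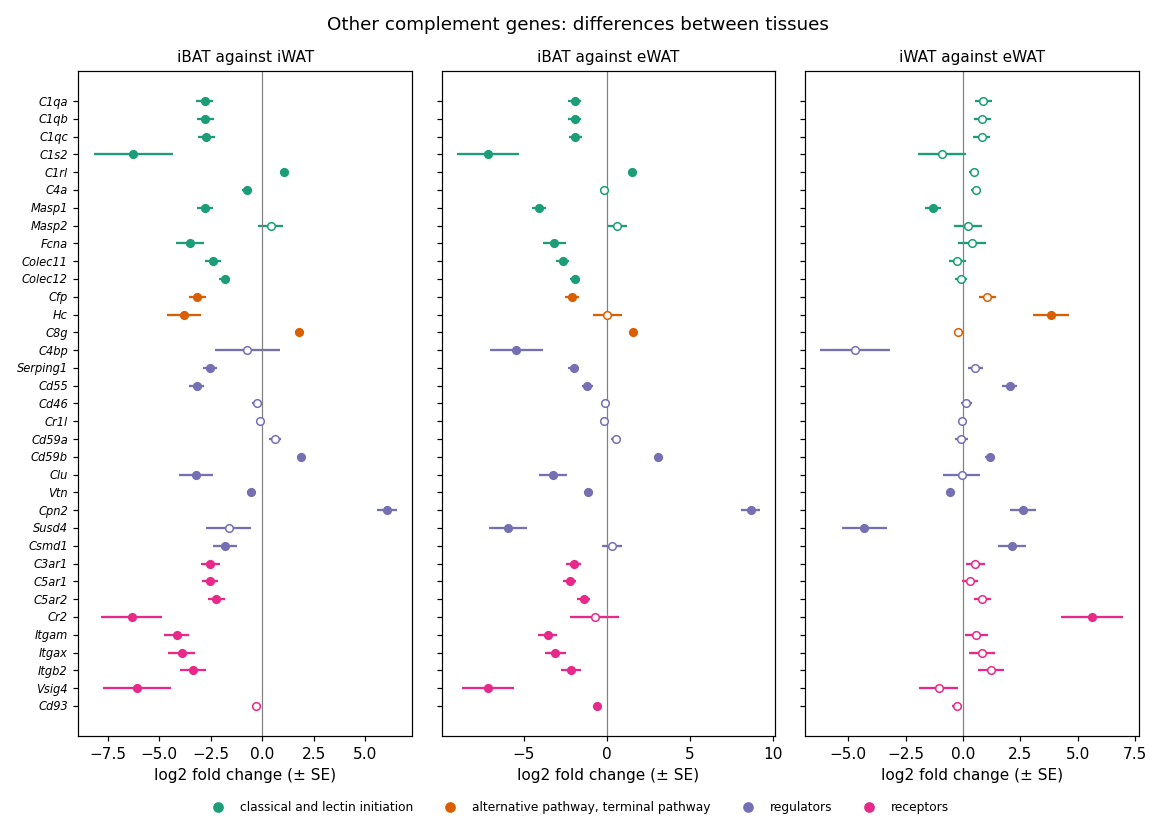
Log2 fold changes with SE from edgeR for 35 of the 36 other complement genes tested, in the 3 tissue comparisons, coloured by list, with filled points for an adjusted p below 0.05. In the iBAT comparisons 24 and 23 filled points lie below 0 and 4 above it, Cpn2 farthest to the right, while the fitted values of C1s2 and Vsig4 rest on 0 counts in iBAT.

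The knockout comparison asks whether loss of Gm15551 altered these genes. None of the 9 members was called in any genotype contrast of edgeR. Of all genes tested, 0.00534% were called across tissues, 0% in iBAT, 0% in iWAT, 0.00534% in eWAT and 0% for an interaction of genotype with tissue. The gene called across tissues and in eWAT was Gm15551. DESeq2 and limma also called 0 members. At an unadjusted p below 0.05 there were 0 members across tissues, 0 in iBAT, 1 in iWAT and 0 in eWAT. For no member did the 3 wt and 3 ko libraries of a tissue separate, against 4.94%, 4.92% and 5.25% of all genes in iBAT, iWAT and eWAT.

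The fitted genotype differences were small beside the spread. Across tissues, the log2 fold change of ko against wt was -0.35 for Cfd (95% interval -0.99 to 0.30) and -0.11 for C3 (-0.59 to 0.37). The intervals of C4b (-0.75 to 0.53), Cfb (-0.46 to 0.45), C1s1 (-0.37 to 0.31), C1ra (-0.27 to 0.40) and C2 (-0.45 to 0.60) all included 0, and those of C6 (-0.58 to 1.07) and C7 (-0.86 to 1.49) were wider. These intervals come from 18 libraries with no term for the mouse, although each mouse gave 3 of them. With counts summed per mouse, 3 against 3, none was called either, and the intervals were -1.07 to 0.68 for Cfd, -0.79 to 0.66 for C3 and -0.90 to 1.95 for C6. The data do not show that the levels were equal. C7 in iWAT was the member with an unadjusted p below 0.05 (log2 fold change 1.98 ± 0.78 SE, edgeR adjusted p = 1.0, with 0.022 before adjustment), with 22.5, 17.8 and 10.9 CPM in wt and 162, 35.4 and 5.08 CPM in ko. The ko group thus held both the highest and the lowest level, and the highest was that of the library with muscle genes. Its interaction of genotype with tissue had an edgeR adjusted p of 1.0, with 0.0495 before adjustment. Without the 4 libraries that stood apart, the difference of C7 across tissues was -0.80 instead of 0.32.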

How the data were processed

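Poly(A) RNA was sequenced as paired-end libraries from iBAT, iWAT and eWAT of 6 mice. Per the labels and the methods of the study, the authors trimmed reads with cutadapt, quantified them with Salmon on the GENCODE mouse transcriptome (GRCm38) and tested them with DESeq2. The deposited table holds estimated counts per gene, rounded to whole numbers and not normalised. Estimates share reads among near-identical transcripts, and the strand setting is not given in the sources used here, so overlapping genes on opposite strands may share reads.

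Totals of 14997901 to 34389586 counts set the precision. Counts were fitted with edgeR 4.0.16 (R 4.3.3) by the quasi-likelihood test with TMM scaling after filterByExpr, with terms for tissue and genotype or 1 mean per group, and Benjamini-Hochberg adjustment over 18728 genes (threshold 0.05). Log2 CPM used a prior count of 2. DESeq2 1.42.0, limma 3.58.1, other filters, scalings and subsets of libraries were alternatives. Within-library ratios were compared by exact sign-flip permutation over mice. Levels per length used the union of exons in GENCODE M21, shared sequence was counted as stretches of 31 bases, and promoter windows came from RefSeq. Of these steps, the edgeR fit was tested on simulated counts. The simulation covered iBAT against iWAT and genotype across tissues, with no effect of the mouse.

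All 9 members were named, with up to 4 genes of the smallest p per list and comparison among those called, and the 3 genes most correlated with Cfd, C3, C4b, C6 and C7. Of these, 2 genes are not reported here. Members and lists were chosen with earlier results of these data known. The labels name the animal, so the ratios were paired by mouse. The edgeR fit had no term for the mouse, which was a block in an alternative. The main fit did not pair wt with ko by replicate number. Deviations of same-numbered libraries from their group means correlated between -0.47 and 0.55. Such a spread cannot decide whether the numbers mark matched mice.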

Additional observations from a re-analysis of the deposited data

Results flagged for a closer look

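For each of the 9 genes and 3 tissues, the gap between the highest or lowest library and its nearest neighbour was compared with the range of the 6 libraries. In 2 of 27 comparisons the gap was above Dixon's critical value at the 95% level, where chance gives about 1 in 20, or 1.35. Both were C7. In iBAT, wt replicate 2 had 7.75 CPM, against 1.93 to 2.97 CPM in the other 5 libraries. In iWAT, ko replicate 1, the library in which skeletal muscle markers summed to 4469 CPM, had 162 CPM, against 5.08 to 35.4 CPM in the others.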

How the results depend on the processing

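Each result was recomputed with other scalings, filters, tools, blocks and subsets of libraries. The number of members called was 8 in iBAT against iWAT and 9 in iBAT against eWAT, but 7 and 8 with at least 10 counts in every library, a filter that C6 did not pass, and 8 against eWAT in wt libraries alone, where C3 was not called. It was 0 in every genotype contrast. Between iWAT and eWAT it was 3, but 5 in DESeq2 and 5 in limma with quality weights, and 2 to 4 when 1 library or mouse was left out. It fell to 2 in wt libraries alone, without the 4 libraries that stood apart, and with at least 10 counts in every library. With the mouse as a block, 8, 9 and 4 members were called, C7 being added between the white depots, and 30, 27 and 8 other complement genes instead of 29, 28 and 9. The block by replicate number was run for the genotype contrasts, where no member was called and the Cfb value changed sign (0.0037). Other complement genes were called less often with at least 10 counts in every library (19 instead of 29 in iBAT against iWAT, 3 instead of 9 in iWAT against eWAT), where fewer genes were tested. Between the white depots, 9 were called, but 5 with the mouse as a random effect, 0 in wt libraries alone, 5 without the 2 lymph node libraries and 4 to 11 with 1 library or mouse left out. The cause was not tested.

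Of the genotype differences across tissues, none of which was called, several changed sign. Cfb (-0.0047) became 0.0042 with size factors of DESeq2, 0.0020 in DESeq2, 0.095 in limma with quality weights, 0.0051 without the 4 libraries that stood apart and 0.10 with counts summed per mouse. Summing per mouse also gave 0.072 for C4b and 0.026 for C1s1. C1ra became -0.0083 with the mouse as a random effect, and C7 became -0.80 without the 4 libraries, a subset chosen after seeing the data, as was the addition of partner counts. With 1 library or mouse left out, the values ran from -0.35 to 0.038 (C3), -0.31 to 0.13 (C4b), -0.14 to 0.13 (Cfb), -0.22 to 0.15 (C1s1), -0.061 to 0.21 (C1ra), -0.16 to 0.28 (C2), -0.093 to 0.97 (C6) and -0.31 to 0.71 (C7). Over the longest transcript instead of all exons, C2 had 46.1 CPM per kb in iWAT, above C1ra at 45.0, and 52.7 in eWAT, where Cfb at 59.3 passed C7 at 58.6. In DESeq2, 4, 13, 4 and 13 of all genes were called for genotype across tissues, in iBAT, in iWAT and in eWAT. Depth limits C6 in iBAT, with 1 to 6 counts per library.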
